A study of Homo sapiens with 9 samples.

Results

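H19 and a set of other imprinted genes were followed across knockdowns of the arginine methyltransferase PRMT5 and its partner MEP50. The set holds 10 genes: H19, IGF2, CDKN1C, PHLDA2, IGF2R, GRB10, PEG10, MEST, PLAGL1 and MEG3. They were found by matching each symbol to its Ensembl identifier among the 51796 genes of the count table, and all 10 had a row. The set was put together because H19 was strongly and unequally lower in the knockdowns. The values of H19 are therefore given as a description with no test, and the tests below are on the other members. Of those other 9, 8 had enough reads to be tested and MEG3 did not.

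The cells were A549, an established line of human lung adenocarcinoma. One group carried a stable short hairpin RNA against PRMT5, which encodes the main symmetric arginine dimethyltransferase of the cell, acting on histones and on splicing proteins. A second group carried a stable hairpin against MEP50, the WD-repeat protein encoded by WDR77 that binds PRMT5 in the methylosome. The control group carried a stable hairpin against GFP, which these cells do not encode. All 3 groups were held under puromycin selection in the same serum-containing medium, each with 3 biological replicates. The labels name 1 hairpin group per target and do not say whether lines were clonal, so loss of a target cannot be told apart from other effects of its hairpin or line. Nor do they say that replicates were derived from separate infections, so p-values measure the spread between these samples.

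Imprinted genes are transcribed mainly or only from the allele inherited from 1 parent, which is set by DNA methylation laid down in the germ line at imprinting control regions. On chromosome 11p15, H19, a maternally expressed long noncoding RNA, and IGF2, a paternally expressed growth factor, share enhancers. The insulator protein CTCF binds the unmethylated maternal control region between them and keeps those enhancers from IGF2. Many imprinted genes act on fetal growth, and several are lowly expressed in adult tissues and are expressed again in tumours. The reads used here are counts per gene with no allele assigned, so the parental origin of the transcripts was not measured.

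H19 is also the host of a microRNA, as is MEST, and these mature sequences are shown because the host transcripts H19 and MEST were lower and higher, in that order, in both knockdowns. The MIR675 hairpin lies inside an exon of H19 on the same strand and is contained in 4 of 12 annotated H19 transcripts. MIR335 lies inside the MEST gene on the same strand but in none of the exons of its 17 annotated transcripts. The sequences are from RefSeq (GRCh38.p14), written 5′ to 3′ with the seed, bases 2 to 8, in capitals.
hsa-miR-675-5p, chr11:1996800-1996822, minus strand: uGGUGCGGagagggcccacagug
hsa-miR-675-3p, chr11:1996768-1996787, minus strand: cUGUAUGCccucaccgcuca
hsa-miR-335-5p, chr7:130496126-130496148, plus strand: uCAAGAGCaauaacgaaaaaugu
hsa-miR-335-3p, chr7:130496162-130496183, plus strand: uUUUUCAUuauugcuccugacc
The 4 seeds are all different. The microRNAs themselves were not measured by these libraries: the MIR335 row held 2 reads, both in GFP control libraries, and MIR675 had no matched row.

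The H19 start region is shown because the set was built around the fall of H19. It covers 250 bases before to 50 bases after the RefSeq start, at chr11:2001217-2001516 on the minus strand (GRCh38.p14), with CpG dinucleotides in capitals.
H19 promoter window: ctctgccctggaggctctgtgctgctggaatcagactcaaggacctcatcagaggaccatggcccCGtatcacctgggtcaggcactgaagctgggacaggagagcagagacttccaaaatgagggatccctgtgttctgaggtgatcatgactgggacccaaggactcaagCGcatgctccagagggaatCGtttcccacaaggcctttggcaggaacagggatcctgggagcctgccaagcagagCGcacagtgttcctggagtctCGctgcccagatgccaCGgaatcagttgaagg
This window held 6 CpG dinucleotides, against a median of 14 over 35116 promoter windows of the same length, of which 36.8% held no more than 6. The IGF2R window held 41, those of MEST 13 to 25 in 5 windows, and those of MEG3 17 to 19 in 3 windows. GRB10 and PLAGL1, each with 5 alternative starts, ranged from 3 to 49 and from 2 to 39. A GC box (GGGCGG, either strand) was found in 2 of 5 windows each of MEST, GRB10 and PLAGL1 and in the IGF2R window, but not in that of H19 or MEG3, against 45% of all windows. The E-box CACGTG, which reads the same on both strands, was found in the IGF2R window and in 1 PLAGL1 window, against 7.26% of all windows. The TATA box TATAAA, on either strand, was found in all 3 MEG3 windows, which overlap each other, and in 1 window each of GRB10 and PLAGL1, against 11.5% of all windows. The RefSeq table used held windows for 6 of the 10 members and none for IGF2, CDKN1C, PHLDA2 and PEG10. DNA methylation was not measured here, and a match of letters is not a bound site.

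Between 20806181 and 31586128 reads per library fell on genes, and 14582 genes had enough reads to be tested. Levels are CPM, counts scaled to library size, after TMM scaling, whose factors lay between 0.99 and 1.01. A gene passed where the quasi-likelihood test of edgeR, adjusted over all tested genes by the Benjamini-Hochberg method, gave a p below 0.05, and the error given after ± is the SE for a log2 fold change and the SD of 3 libraries for a CPM level. PRMT5 was at 33.1% of the control mean in PRMT5 knockdown cells and WDR77 at 31.8% in MEP50 knockdown cells, and the libraries of each did not overlap with the control. Epithelial keratins KRT8 and KRT18 averaged 1932 to 2100 CPM in the knockdowns and 3223 and 3195 CPM in the GFP control, while EPCAM held 13 to 19 reads per group and KRT19 at most 2. The epithelial markers CDH1 and KRT7 were instead higher in MEP50 knockdown cells. CDH1, which encodes E-cadherin, had 34.9 ± 2.45 CPM in PRMT5 knockdown cells and 75.6 ± 8.5 CPM in MEP50 knockdown cells, against 40.1 ± 1.64 CPM in the GFP control, with log2 fold changes against the control of -0.20 and 0.92 (edgeR adjusted p = 0.0131 and 8.73e-14). KRT7 had log2 fold changes of 0.38 and 0.74 (edgeR adjusted p = 0.11 and 0.0017). The sum of the 6 epithelial markers, nearly all of it KRT8 and KRT18, was 4154 to 4313 CPM in PRMT5 knockdown libraries, 3870 to 4147 CPM in MEP50 knockdown libraries and 6345 to 6575 CPM in GFP control libraries. The 5 blood markers summed to at most 0.0789, 0.0705 and 0.2 CPM in the libraries of the PRMT5 knockdown, the MEP50 knockdown and the GFP control, and CD3E and HBB had no read in any library. The 6 trophoblast markers, included because placenta is rich in imprinted transcripts, summed to at most 0.0631, 0.211 and 0.539 CPM in the same order, and nearly all of this was PSG1. Fibroblast markers summed to 0.871 to 1.1 CPM in the PRMT5 knockdown, 8.37 to 8.74 CPM in the MEP50 knockdown and 4.64 to 5.83 CPM in the GFP control. Most of that sum was LUM, which fell by 3.06 in PRMT5 knockdown cells and rose by 0.61 in MEP50 knockdown cells on the log2 scale, with THY1 at no read and DCN at 1 read in all. PDGFRA, the other tested fibroblast marker, had 26, 36 and 6 reads in the PRMT5 knockdown, the MEP50 knockdown and the GFP control and was higher in both knockdowns (log2 fold changes 1.95 and 2.73, edgeR adjusted p = 0.0239 and 0.000822). PDGFRA passed the filter on low counts through knockdown libraries, where it was higher, so its entry into the test depended on that difference. The part of the epithelial markers, LUM and PDGFRA in the results below was not tested.

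H19 (ENSG00000130600), the gene the set was chosen on, was lowest in the MEP50 knockdown and intermediate in the PRMT5 knockdown. The PRMT5 knockdown libraries held 4.26, 4.52 and 4.01 CPM (108, 140 and 127 reads). The MEP50 knockdown libraries held 0.387, 0.748 and 0.705 CPM (8, 16 and 20 reads), against 31.8, 32.3 and 28.8 CPM in the GFP control (797, 957 and 794 reads). The 3 groups did not overlap: every control library was above every PRMT5 knockdown library, and those above every MEP50 knockdown library.

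Group means of H19 were 4.26 ± 0.254 CPM in the PRMT5 knockdown, 0.613 ± 0.197 CPM in the MEP50 knockdown and 30.9 ± 1.91 CPM in the GFP control (SD, n = 3 each). Thus 13.8% of the control level remained in PRMT5 knockdown cells and 1.98% in MEP50 knockdown cells. In pooled reads, the ratio to the control was 0.138 in the PRMT5 knockdown (95% counting interval 0.123 to 0.153) and 0.0202 in the MEP50 knockdown (0.0146 to 0.0272). The PRMT5 knockdown had 6.82 times as much H19 as the MEP50 knockdown (4.98 to 9.55). These exact conditional intervals cover counting error only, and fewer cells with H19 cannot be told apart from less H19 per cell in bulk RNA. The log2 fold changes were -2.86 in PRMT5 knockdown cells and -5.62 in MEP50 knockdown cells. Both knockdowns are set against the same control libraries here and throughout.

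**Figure D1:**
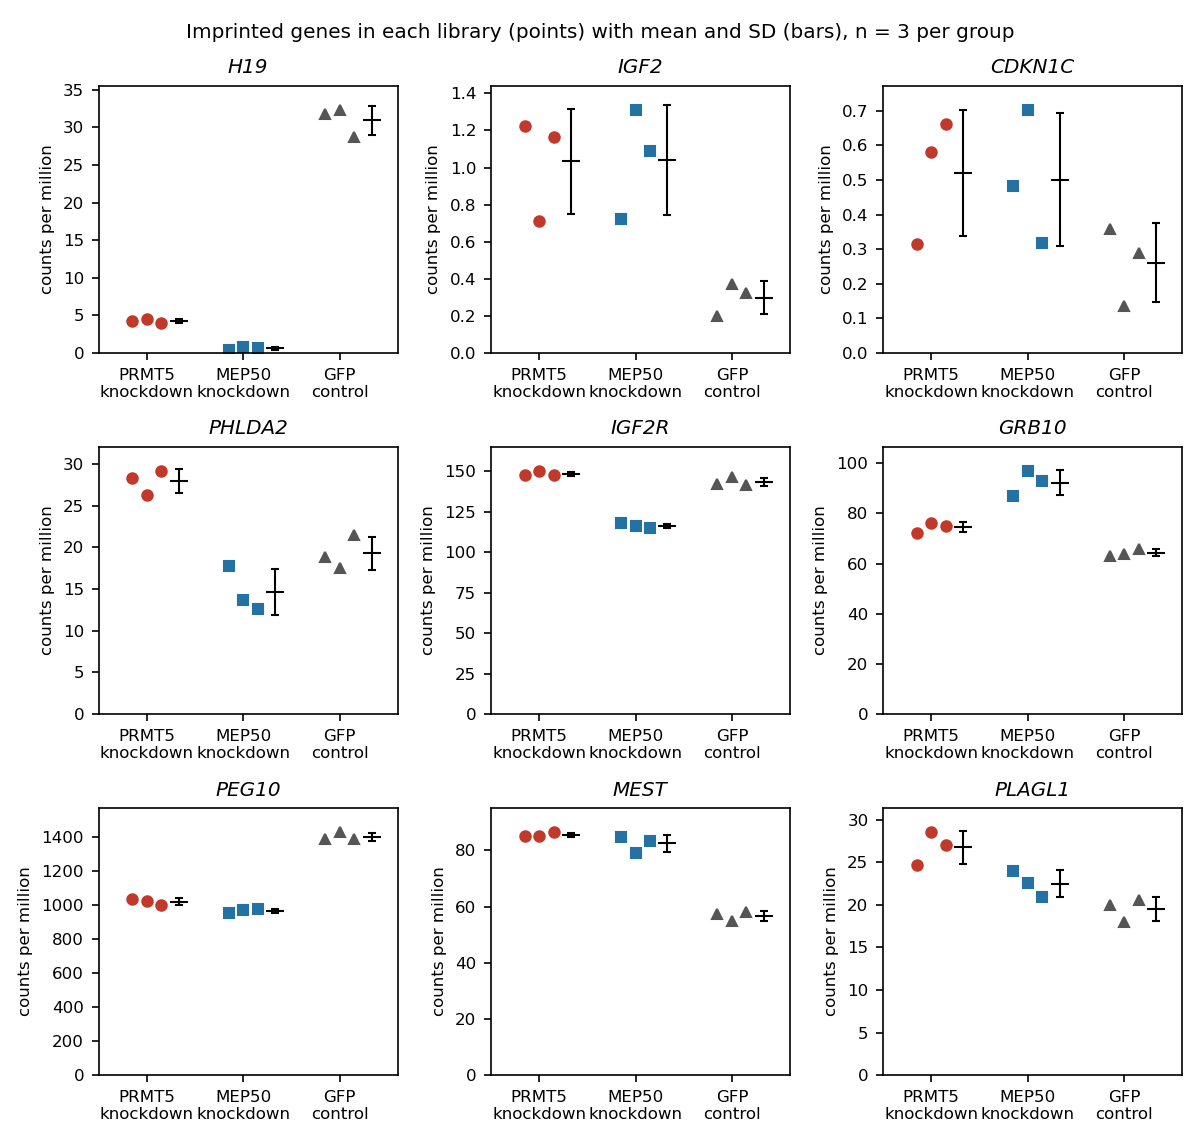
CPM of 9 members in each library (y axis, linear and starting at 0), with PRMT5 knockdown, MEP50 knockdown and GFP control from left to right; points are libraries, and the bar beside them is the mean with its SD (n = 3). H19 lies at 4.26 CPM in PRMT5 knockdown cells and 0.613 CPM in MEP50 knockdown cells, against 30.9 CPM in the control, while IGF2 lies above the control in all 6 knockdown libraries.

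IGF2 (ENSG00000167244), the insulin-like growth factor 2 ligand and the neighbour of H19, was higher in both knockdowns but remained at about 1 CPM. It was counted 31, 22 and 37 times in the PRMT5 knockdown libraries (1.22, 0.71 and 1.17 CPM). The MEP50 knockdown libraries had 15, 28 and 31 reads (0.725, 1.31 and 1.09 CPM), against 5, 11 and 9 reads (0.2, 0.371 and 0.326 CPM) in the GFP control. Every knockdown library was above every control library, and the knockdowns overlapped with each other.

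The log2 fold change of IGF2 was 1.75 ± 0.41 (SE) in PRMT5 knockdown cells and 1.77 ± 0.42 in MEP50 knockdown cells, with edgeR adjusted p of 0.000404 and 0.000407. The ratio of pooled reads was 3.37 (95% counting interval 2.14 to 5.47) in PRMT5 knockdown cells and 3.46 (2.17 to 5.68) in MEP50 knockdown cells. IGF2 passed the filter on low counts through the knockdown libraries, where it was higher, so its entry into the test depended on that difference. In the authors' deposited tables the IGF2 log2 fold change was 0.97 by DESeq2 and 1.75 by edgeR for the PRMT5 knockdown, and 0.98 and 1.78 for the MEP50 knockdown. Between the knockdowns the IGF2 difference was -0.026 with a 95% interval of -0.72 to 0.67 (edgeR adjusted p = 0.964). H19 differed 6.82-fold between the same libraries. Since the set was chosen on the unequal fall of H19, this contrast is a description only. INS-IGF2, a readthrough gene that overlaps IGF2 on the same strand, had no read, and reads falling on both would have been set aside as ambiguous. IGF2-AS overlaps on the opposite strand, and whether counting used strand is not given in the sources used here.

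CDKN1C, which encodes the cyclin-dependent kinase inhibitor p57, lies farther along the same chromosome arm under a separate control region. Its libraries held 8, 18 and 21 reads in the PRMT5 knockdown (0.316, 0.581 and 0.663 CPM) and 10, 15 and 9 reads in the MEP50 knockdown (0.483, 0.701 and 0.317 CPM). The GFP control had 9, 4 and 8 reads (0.359, 0.135 and 0.29 CPM). Both knockdowns overlapped with the control. The log2 fold change was 1.03 ± 0.49 in the PRMT5 knockdown (edgeR adjusted p = 0.0756) and 0.92 ± 0.51 in the MEP50 knockdown (0.135), and neither passed. Without PRMT5 knockdown replicate 1 the first became 1.25 with an edgeR adjusted p of 0.0459, within a range of 0.0459 to 0.309 over its 16 alternatives. CDKN1C, like IGF2, met the filter on low counts through the knockdown libraries.

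PHLDA2, a pleckstrin-homology protein that restrains placental growth and lies next to CDKN1C, moved in opposite directions in the knockdowns. It stood at 28.4, 26.3 and 29.1 CPM in PRMT5 knockdown cells and 17.7, 13.7 and 12.6 CPM in MEP50 knockdown cells, against 18.9, 17.6 and 21.5 CPM in the GFP control. The PRMT5 knockdown lay above both other groups, whereas 1 MEP50 knockdown library at 17.7 CPM fell within the control range. PHLDA2 rose by 0.53 ± 0.089 in log2 in the PRMT5 knockdown (edgeR adjusted p = 5.85e-06) and fell by 0.41 ± 0.098 in the MEP50 knockdown (0.000663). The difference between the knockdowns was 0.94 ± 0.094 (edgeR adjusted p = 4.52e-10), the largest among the 8 tested members other than H19.

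The listed neighbours of these genes on 11p15 showed no fall of the size seen for H19. Since H19 was chosen for its fall, this contrast is a description only. MRPL23, a mitochondrial ribosomal protein gene and the nearest listed gene on the side of H19 away from IGF2, had 65.9 ± 0.697 CPM in the PRMT5 knockdown, 66 ± 3.04 in the MEP50 knockdown and 64.7 ± 3.09 in the GFP control. Its log2 fold changes were 0.027 ± 0.047 and 0.029 ± 0.047 (edgeR adjusted p = 0.659 and 0.646). Farther along, the lysosomal protease gene CTSD fell by 0.48 ± 0.043 and 0.39 ± 0.044 in the PRMT5 and MEP50 knockdowns. The tetraspanin gene CD81 had log2 fold changes of -0.036 and 0.032. SLC22A18, an imprinted transporter gene beside CDKN1C and PHLDA2, fell by 0.81 ± 0.077 and 0.64 ± 0.078, and CARS1, a cysteinyl-tRNA synthetase gene, rose by 0.096 ± 0.041 in PRMT5 knockdown cells and by 0.48 ± 0.041 in MEP50 knockdown cells. Of the 24 names listed as neighbours on this arm, 22 were matched, 9 of these had no read and 9 were tested. Of the 9, 3 were higher and 3 lower in the PRMT5 knockdown (median log2 fold change 0.019), 2 and 3 in the MEP50 knockdown (median 0.02), and 1 and 1 between the knockdowns (median -0.068). Over all tested genes 51%, 51.7% and 39.7% passed in these comparisons, beside 66.7%, 55.6% and 22.2% of the 9.

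**Figure D2:**
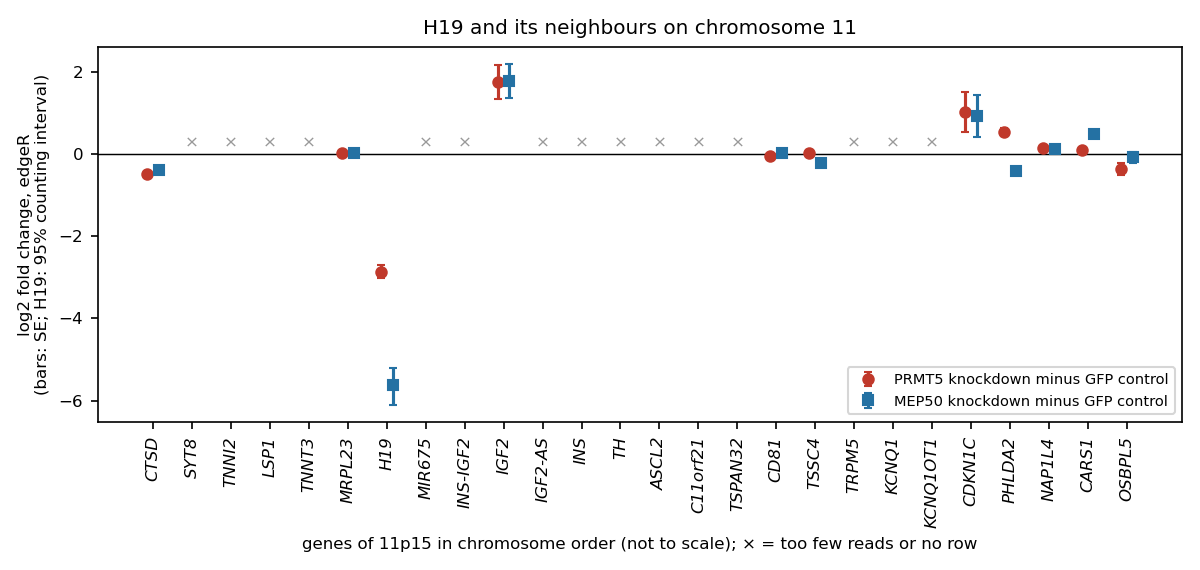
Log2 fold change against the GFP control (y axis) of genes on 11p15 in chromosome order (x axis, not to scale), with the PRMT5 knockdown left of the MEP50 knockdown at each gene; bars are SE, for H19 the 95% counting interval, and crosses mark genes with too few reads or no matched row. H19 at -2.86 and -5.62 stands between MRPL23 at 0.027 and 0.029 and IGF2 at 1.75 and 1.77. The tested neighbours SLC22A18 (-0.81 and -0.64) and SLC22A18AS (0.41 and 0.02) are not drawn.

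IGF2R and GRB10 act on the IGF pathway from the other side. IGF2R is the receptor that takes IGF2 up for lysosomal degradation and also carries mannose 6-phosphate-tagged enzymes. It stood at 147.8, 149.9 and 147.7 CPM in PRMT5 knockdown cells and 117.7, 115.9 and 114.9 CPM in MEP50 knockdown cells, against 141.9, 146.2 and 141.5 CPM in the GFP control. The MEP50 knockdown lay below both other groups. IGF2R fell by 0.30 ± 0.034 in log2 in the MEP50 knockdown (edgeR adjusted p = 7.27e-10). In the PRMT5 knockdown its log2 fold change was 0.051 with a 95% interval of -0.016 to 0.12 (0.203). The knockdowns differed by 0.35 ± 0.034 (edgeR adjusted p = 2.94e-11). The antisense gene AIRN overlaps IGF2R on the opposite strand and had no matched row.

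GRB10, an adaptor that binds activated insulin and IGF receptors and dampens their signal, was higher in both knockdowns. It was at 72.4, 76.3 and 75.1 CPM in PRMT5 knockdown cells and at 87.1, 96.8 and 92.9 CPM in MEP50 knockdown cells, against 63.2, 63.8 and 65.8 CPM in the GFP control. The groups did not overlap, and the MEP50 knockdown was the highest. The rise was 0.22 ± 0.044 in log2 in the PRMT5 knockdown (edgeR adjusted p = 8.64e-05) and 0.52 ± 0.044 in the MEP50 knockdown (4.31e-13). The PRMT5 knockdown was lower than the MEP50 knockdown by a log2 difference of -0.31 ± 0.044 (edgeR adjusted p = 2.77e-07).

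PEG10, a paternally expressed gene derived from a retrotransposon and needed for placental development in mice, had the highest level per length of all members. It held 1036, 1025 and 998 CPM in PRMT5 knockdown cells and 950, 969 and 976 CPM in MEP50 knockdown cells, against 1386, 1428 and 1391 CPM in the GFP control. Both knockdowns were below the control in every library. PEG10 fell by 0.46 ± 0.025 in log2 in the PRMT5 knockdown (edgeR adjusted p = 3.74e-19) and by 0.54 ± 0.025 in the MEP50 knockdown (2.21e-21). The difference of 0.079 ± 0.025 between the knockdowns passed (edgeR adjusted p = 0.0097) but did not without PRMT5 knockdown replicate 1 (0.059, 0.101) or MEP50 knockdown replicate 1 (0.057, 0.087), over a range of 0.00123 to 0.101 in all alternatives. SGCE, the imprinted sarcoglycan gene on the opposite strand that shares a start region with PEG10, went the other way: 47.3 ± 2.84 CPM in PRMT5 knockdown cells and 43.9 ± 1.41 in MEP50 knockdown cells, against 39 ± 1.33 in the GFP control (log2 fold changes 0.28 and 0.17, edgeR adjusted p = 5.22e-05 and 0.0108).

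MEST, a paternally expressed member of the alpha/beta hydrolase family, was higher in both knockdowns. It was at 85.3, 84.9 and 86.4 CPM in PRMT5 knockdown cells and at 84.9, 79.1 and 83.4 CPM in MEP50 knockdown cells, against 57.3, 54.7 and 58 CPM in the GFP control. All 6 knockdown libraries were above the control. MEST rose by 0.59 ± 0.043 in log2 in the PRMT5 knockdown (edgeR adjusted p = 4.73e-15) and by 0.54 ± 0.044 in the MEP50 knockdown (1.18e-13). The difference between the knockdowns was 0.052 with a 95% interval of -0.034 to 0.14 (edgeR adjusted p = 0.354). COPG2, which overlaps MEST on the opposite strand, had 14.5, 16.4 and 13.4 CPM in the PRMT5 knockdown, the MEP50 knockdown and the GFP control.

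PLAGL1, a paternally expressed zinc-finger transcription factor, was highest in the PRMT5 knockdown. Its libraries held 24.7, 28.5 and 27.1 CPM in PRMT5 knockdown cells and 24, 22.6 and 20.9 CPM in MEP50 knockdown cells, against 20, 18 and 20.6 CPM in the GFP control. The groups did not overlap, but the highest control library at 20.6 CPM lay close to the lowest MEP50 knockdown library at 20.9 CPM. PLAGL1 rose by 0.46 ± 0.076 in log2 in the PRMT5 knockdown (edgeR adjusted p = 2.45e-06). In the MEP50 knockdown the value was 0.20 ± 0.079 (edgeR adjusted p = 0.0302). It no longer passed without GFP control replicate 2 (0.14, 0.196), MEP50 knockdown replicate 1 (0.16, 0.126) or MEP50 knockdown replicate 2 (0.20, 0.06) and with no filter on low counts (0.18, 0.0677), in a range of 0.0185 to 0.196. The authors' deposited table for the MEP50 knockdown does not list PLAGL1. The difference between the knockdowns was 0.26 ± 0.076 (edgeR adjusted p = 0.0059), lost without PRMT5 knockdown replicate 2 (0.21, 0.0546) or MEP50 knockdown replicate 3 (0.20, 0.0629), in a range of 0.00281 to 0.0629. HYMAI, an imprinted noncoding RNA transcribed within PLAGL1 on the same strand, had no matched row.

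MEG3, a maternally expressed long noncoding RNA of chromosome 14, was at the limit of detection at this depth. It had no read in any of the 6 knockdown libraries and 1 read in GFP control replicate 2. A count of 0 allows up to 0.0343 CPM in PRMT5 knockdown cells and 0.0422 CPM in MEP50 knockdown cells (3 reads over each group). DLK1, its paternally expressed neighbour, had no read in any library.

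**Figure D3:**
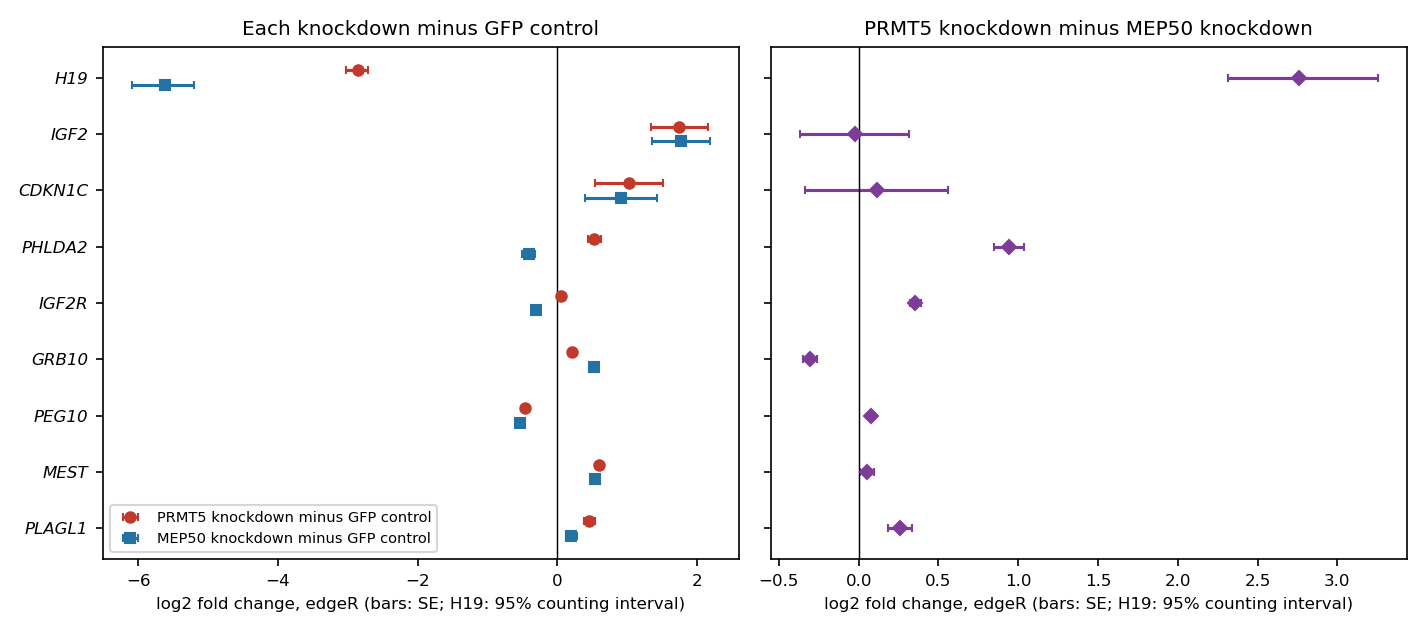
Log2 fold change of 9 members (x axis): left panel, PRMT5 knockdown (circles) and MEP50 knockdown (squares) each minus GFP control; right panel, PRMT5 knockdown minus MEP50 knockdown. Bars are SE, for H19 the 95% counting interval. PHLDA2 lies on opposite sides of 0 in the knockdowns at 0.53 and -0.41. H19, on which the set was chosen, lies farthest from 0.

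Across the set, the members did not move as 1 group. Of the 8 tested members other than H19, 5 were higher (IGF2, PHLDA2, GRB10, MEST, PLAGL1) and 1 was lower (PEG10) in the PRMT5 knockdown. Over all tested genes, 51% passed in that comparison, 26.1% as higher and 24.9% as lower. In the MEP50 knockdown 4 were higher (IGF2, GRB10, MEST, PLAGL1) and 3 lower (PHLDA2, IGF2R, PEG10), where 51.7% of all genes passed, 26.5% as higher and 25.2% as lower. Between the knockdowns 4 were higher in the PRMT5 knockdown (PHLDA2, IGF2R, PLAGL1, PEG10) and 1 lower (GRB10), where 39.7% of all genes passed, 19.2% as higher and 20.5% as lower. With so many genes called, and with IGF2 and CDKN1C entering the test through the libraries where they are high, these counts are no result about imprinted genes.

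Levels of different members can be set side by side only per length. Per kilobase of annotated exon (GENCODE 29), the order in the GFP control was PEG10 (210 CPM per kb), PHLDA2 (20.2), MEST (11.8), H19 (10.7), IGF2R (8.03), GRB10 (6.56), PLAGL1 (2.23), CDKN1C (0.105) and IGF2 (0.0428). No neighbours in that order overlapped between control libraries, the closest by ratio being MEST at 11.4 to 12.1 and H19 at 9.93 to 11.1, and IGF2 at 0.0286 to 0.0531 below CDKN1C at 0.0544 to 0.145. In the PRMT5 knockdown H19 had 1.47 CPM per kb and in the MEP50 knockdown 0.212, which put it seventh of the 10 in both, below PLAGL1 at 3.07 and 2.58. In the MEP50 knockdown H19, CDKN1C and IGF2 overlapped between libraries, as did PHLDA2 and MEST, and so did CDKN1C and IGF2 in the PRMT5 knockdown. IGF2 stayed the lowest member with reads in every group, with 0.148 CPM per kb in PRMT5 knockdown cells and 0.149 in MEP50 knockdown cells. Any reads set aside as shared with overlapping entries on the same strand are missing from these IGF2 values. Lengths take every annotated exon, so a member of which A549 cells use a short isoform is understated.

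**Figure D4:**
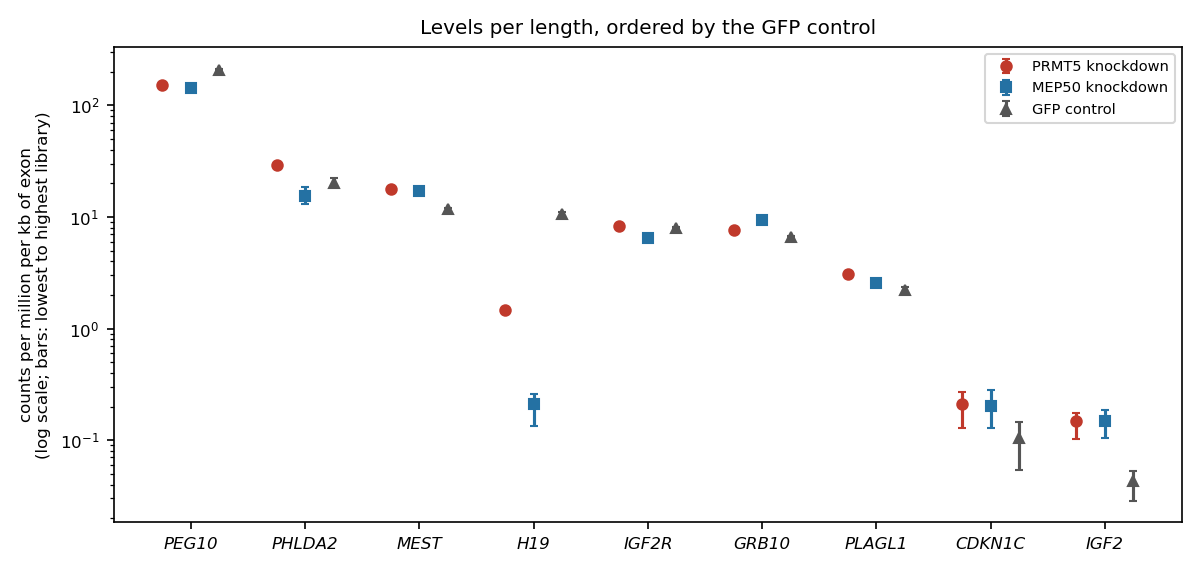
Level of 9 members in CPM per kilobase of exon (y axis, log scale), ordered by the GFP control, with PRMT5 knockdown, MEP50 knockdown and GFP control from left to right at each gene; points are means of 3 libraries and bars run from the lowest to the highest library. H19 stands at 1.47 and 0.212 in the knockdowns against 10.7 in the control, and PEG10 is the highest in all 3 groups.

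Other imprinted genes, listed by name and not by how they moved, also changed in both directions. Of 48 names, 41 were matched, 10 of these had no read and 25 were tested. In the PRMT5 knockdown 7 were higher and 10 lower (median log2 fold change 0.047), and in the MEP50 knockdown 7 and 8 (median -0.074), against the 51% and 51.7% of all genes given above. Among the 7 higher in the PRMT5 knockdown was SNRPN, with 63, 29 and 27 reads in the PRMT5 knockdown, the MEP50 knockdown and the GFP control. SNRPN passed the filter on low counts through the PRMT5 knockdown libraries, where it was higher, so its entry into the test depended on that difference. Without GFP control replicate 2, 11 of the 25 passed in the PRMT5 knockdown in place of 17, 4 higher and 7 lower. The 51% is from the fit of all 9 libraries, and no share of all genes without that library is set beside this count. The drop is therefore no result about imprinted genes. Between the knockdowns 5 were higher and 4 lower in the PRMT5 knockdown (median -0.036), where 39.7% of all genes passed. The phospholipid flippase gene ATP10A rose most, to 28.8 ± 0.0822 CPM in PRMT5 knockdown cells and 31.2 ± 2.78 CPM in MEP50 knockdown cells, against 11 ± 0.67 CPM in the GFP control (2.62-fold and 2.83-fold). GLIS3, a zinc-finger transcription factor gene, fell to 80.9 ± 0.844 and 85 ± 5.8 CPM in the PRMT5 and MEP50 knockdowns, against 159.6 ± 4.51 CPM in the GFP control (log2 fold changes -0.98 and -0.91). FAM50B fell by 0.81 ± 0.15 and 0.51 ± 0.15. ZDBF2, a paternally expressed zinc-finger gene, fell to 26.5 ± 2.24 CPM in PRMT5 knockdown cells and 16.4 ± 1.48 CPM in MEP50 knockdown cells, against 39.1 ± 1.66 CPM in the GFP control, and the knockdowns differed by 0.70 ± 0.077 (edgeR adjusted p = 1.04e-09). ZNF331 had the same order of groups, with 9.91, 7.27 and 12.5 CPM in the PRMT5 knockdown, the MEP50 knockdown and the GFP control and 0.45 ± 0.13 between the knockdowns (0.00354).

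**Figure D5:**
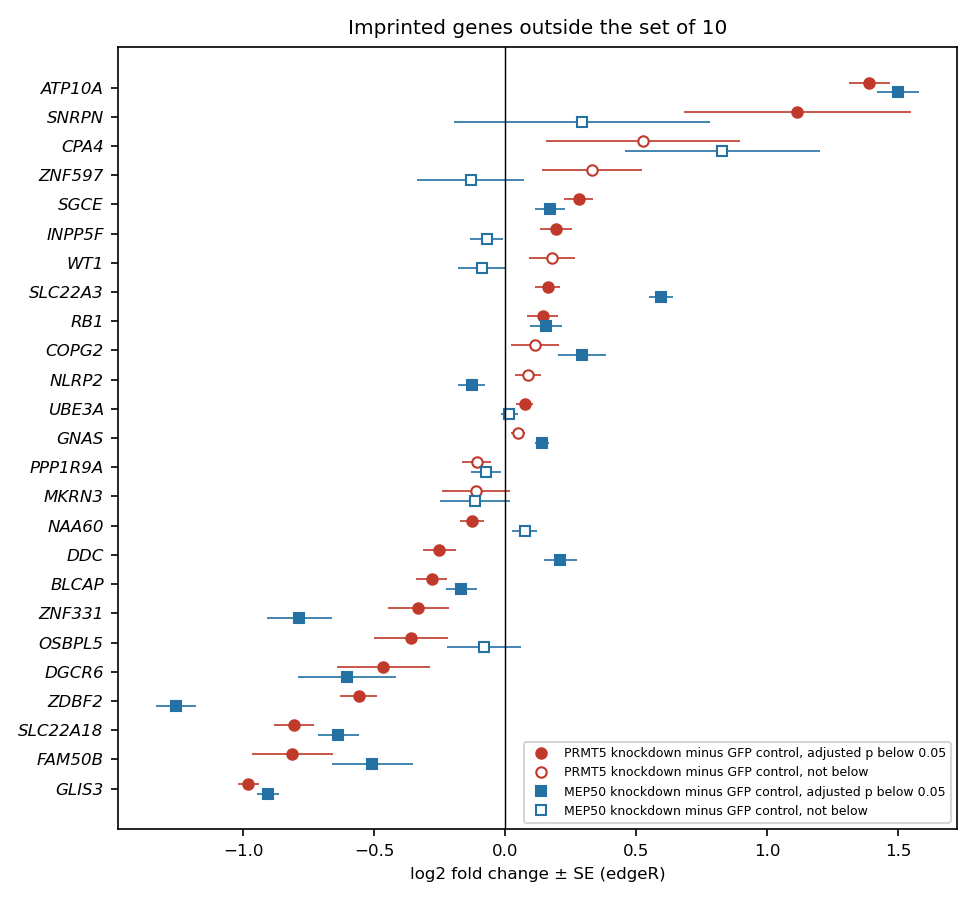
Log2 fold change (x axis, bars are SE) of the 25 tested imprinted genes outside the set, ordered by the PRMT5 knockdown (circles, drawn above the squares of the MEP50 knockdown), each minus GFP control; filled symbols have an edgeR adjusted p below 0.05. ATP10A lies farthest to the right, and GLIS3 at -0.98 and -0.91 is the lowest in the PRMT5 knockdown. SNRPN passed the filter on low counts through the PRMT5 knockdown libraries, where it was higher.

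Genes near the other members were likewise mixed. Of 32 names, 28 were matched and 21 tested, with 9 higher and 6 lower in the PRMT5 knockdown (median 0.10), 7 and 6 in the MEP50 knockdown (median 0.08) and 6 and 3 between the knockdowns (median -0.0093). That is 71.4%, 61.9% and 42.9% of the 21, where all genes had 51%, 51.7% and 39.7%. Close to IGF2R, the cation transporter gene SLC22A3 had 56.8 ± 1.3 CPM in PRMT5 knockdown cells and 76.7 ± 1.34 CPM in MEP50 knockdown cells, against 50.8 ± 1.11 CPM in the GFP control. It was thus highest where IGF2R was lowest, with -0.43 ± 0.046 between the knockdowns (edgeR adjusted p = 2.78e-10). ACAT2, a cholesterol-synthesis gene near IGF2R, fell by 0.72 ± 0.039 and 0.89 ± 0.04 in the PRMT5 and MEP50 knockdowns. Beside GRB10, DDC, which encodes the enzyme that makes dopamine and serotonin from their precursors, had 25.9 ± 1.33, 35.6 ± 0.85 and 30.8 ± 1.12 CPM in the PRMT5 knockdown, the MEP50 knockdown and the GFP control, so that like GRB10 it was higher in the MEP50 knockdown than in the PRMT5 knockdown (-0.46 ± 0.064, edgeR adjusted p = 1.44e-07).

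Of the 18 tested regulators of the IGF pathway, 14 (77.8%) passed in each of the comparisons, in both directions, where 51%, 51.7% and 39.7% of all genes passed. IGF1, the other ligand, had 1 read in all. IGF1R, the signalling receptor for IGF2, had 216.4 ± 2.31 CPM in PRMT5 knockdown cells and 229.4 ± 9.62 in MEP50 knockdown cells, against 196.3 ± 2.04 in the GFP control (log2 fold changes 0.14 and 0.23). INSR, the insulin receptor gene, fell to 14.1 ± 1.76 and 20.8 ± 0.544 CPM in the PRMT5 and MEP50 knockdowns, against 32.5 ± 1.13 CPM in the GFP control. The receptor substrates fell as well, IRS1 by 0.64 ± 0.041 and 0.78 ± 0.042 and IRS2 by 0.36 ± 0.037 and 0.18 ± 0.038. PAPPA2, a protease that frees IGFs from binding proteins, rose by 1.64 ± 0.21 and 2.25 ± 0.21, and the binding-protein gene IGFBP1 fell by 1.34 ± 0.13 and 1.59 ± 0.13. STC2, an inhibitor of such proteases, rose by 0.77 ± 0.04 and 0.83 ± 0.041. PAPPA2 averaged 3.42, 5.21 and 1.08 CPM and IGFBP1 4.79, 4.05 and 12.2 CPM in the PRMT5 knockdown, the MEP50 knockdown and the GFP control. More abundant genes of the list were mixed. PAPPA, at 83.8 CPM in the control, had log2 fold changes of 0.03 and 0.05 (edgeR adjusted p = 0.587 and 0.346). IGFBP3, at 567.1 CPM, rose by 0.22 and 0.13, and IGFBP4, at 786.1 CPM, fell by 0.57 and 0.42. Free IGF was not measured. PHLDA1, a relative of PHLDA2, fell in both knockdowns to 95.1 ± 3.96 and 104.5 ± 2.34 CPM, against 257.6 ± 5.29 CPM in the GFP control. The list had 22 names, and 5 were higher and 9 lower in the PRMT5 knockdown (median -0.17), 7 and 7 in the MEP50 knockdown (median 0.09), and 2 and 12 between the knockdowns (median -0.16).

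Proteins that bind the IGF2 or H19 transcripts, with genes of the let-7 microRNA axis in which H19 is known to act as a binding partner, gave the following. IGF2BP1, an RNA-binding protein of both transcripts, had 330.9 ± 4.29 CPM in PRMT5 knockdown cells and 285.9 ± 3.29 in MEP50 knockdown cells, against 285.6 ± 1.08 in the GFP control. IGF2BP2 had 96.9 ± 4.17 CPM in PRMT5 knockdown cells and 104.5 ± 2.68 CPM in MEP50 knockdown cells, against 65.5 ± 1.27 CPM in the GFP control, and its activator and let-7 target HMGA2 rose by 0.54 ± 0.037 and 0.57 ± 0.037. ARID3B, another gene listed with the let-7 axis, fell by 1.05 ± 0.12 and 1.25 ± 0.13. IGF2BP3 fell by 0.25 ± 0.045 in PRMT5 knockdown cells and rose by 0.14 ± 0.045 in MEP50 knockdown cells. LIN28B, a repressor of let-7 maturation, fell by 0.46 ± 0.056 and 0.86 ± 0.059, and DICER1, the microRNA-processing nuclease gene, fell by 0.72 ± 0.037 in the MEP50 knockdown. Of 24 names 20 were tested, with 11 higher and 5 lower in the PRMT5 knockdown (median 0.15), 8 and 6 in the MEP50 knockdown (median 0.028), and 9 and 3 between the knockdowns (median 0.16). These counts are 80%, 70% and 60% of the 20, beside 51%, 51.7% and 39.7% of all genes.

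The 31 tested genes that set or keep DNA methylation and imprints had log2 fold changes of -0.59 to 0.41 in PRMT5 knockdown cells and -0.41 to 0.40 in MEP50 knockdown cells. CTCF, the insulator protein of the H19 control region, had 109.1 ± 1.27 CPM in PRMT5 knockdown cells and 111.9 ± 0.616 in MEP50 knockdown cells, against 98.9 ± 3.93 in the GFP control (log2 fold changes 0.14 and 0.18, edgeR adjusted p = 0.0016 and 0.000126). The maintenance methyltransferase gene DNMT1 rose by 0.21 ± 0.03 in PRMT5 knockdown cells and by 0.072 ± 0.03 in MEP50 knockdown cells (edgeR adjusted p = 1.86e-07 and 0.0434). TRIM28, the corepressor that guards methylated imprints, rose by 0.14 ± 0.028 and 0.19 ± 0.028. DNMT3B, a de novo methyltransferase gene, rose by 0.41 ± 0.055 and 0.40 ± 0.056, and TET1, an enzyme of demethylation, fell by 0.59 ± 0.089 and 0.30 ± 0.089. HELLS, a chromatin remodeller needed for DNA methylation, fell by 0.41 ± 0.034 in the MEP50 knockdown and differed by 0.45 ± 0.034 between the knockdowns. Of the 36 names on that list, 13 were higher and 5 lower in the PRMT5 knockdown (median 0.084), 10 and 11 in the MEP50 knockdown (median 0.023), and 10 and 5 between the knockdowns (median 0.034), or 58.1%, 67.7% and 48.4% of the 31 beside 51%, 51.7% and 39.7% of all genes.

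The non-imprinted relatives of CDKN1C changed unequally in the knockdowns. CDKN1B, which encodes p27, had 38.2 ± 2.53 CPM in PRMT5 knockdown cells and 81.2 ± 1.88 CPM in MEP50 knockdown cells, against 98.5 ± 3.03 CPM in the GFP control. CDKN1A, which encodes p21, had 94.2 ± 2.91, 163.5 ± 12.5 and 102.9 ± 2.67 CPM in the PRMT5 knockdown, the MEP50 knockdown and the GFP control. Both differed between the knockdowns, by -1.09 ± 0.048 for CDKN1B and -0.80 ± 0.042 for CDKN1A (edgeR adjusted p = 4.13e-21 and 4.14e-18). Of 7 CDK inhibitor genes 5 were tested, with 1 higher and 2 lower in PRMT5 knockdown cells, 3 and 2 in MEP50 knockdown cells, and 0 and 4 between the knockdowns, beside the 51%, 51.7% and 39.7% of all genes that passed.

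The genes whose pattern over the 9 libraries was nearest to that of H19 were sought by the root mean square difference in log2 CPM after centring each gene on its own mean, among 12679 genes. They were INHBA at 0.84, KCNJ2 at 0.86, MATN3 at 0.98, HDAC9 at 1.00, LINC02212 at 1.04, LINC03040 at 1.05, NTS at 1.12 and SUSD2 at 1.13, beside a median of 2.28 over all genes compared. INHBA, an activin subunit gene, had 0.938 ± 0.0609 CPM in PRMT5 knockdown cells and 0.458 ± 0.0634 CPM in MEP50 knockdown cells, against 8.44 ± 0.98 CPM in the GFP control. The potassium channel gene KCNJ2 had 0.856 ± 0.0959 and 0.308 ± 0.0891 CPM in the PRMT5 and MEP50 knockdowns, against 4.85 ± 0.386 CPM in the GFP control. NTS, the neurotensin gene, had 11.2 ± 1.85 and 10.8 ± 0.604 CPM in the PRMT5 and MEP50 knockdowns, against 264.6 ± 6.26 CPM in the GFP control; its knockdown means lay close together, where those of H19 stood apart. The search left out genes averaging below 1 CPM over the libraries, and so IGF2, CDKN1C and the untested MEG3. Of the other members besides H19, none fell by more than 0.54 in log2 in either knockdown. The absence of other members of the set from the 8 was thus settled by values given above and is no separate result.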

How the data were processed

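Stranded, rRNA-depleted total RNA of 9 A549 libraries was sequenced, and libraries were grouped by their labels. The authors' deposited table gives raw counts for each Ensembl gene. Per the submitters' processing notes, Trim Galore, STAR and HTSeq on hg19 were used. Their versions and the strand setting of the counting are not given in the sources used here. Reads outside genes (11.9% to 14.5% of counted reads) and ambiguous reads (2.28% to 2.39%) were left out. The authors also deposited 2 tables of knockdown against control, which per the file headers hold log2 fold changes from DESeq2 and from edgeR, an adjusted p-value from DESeq2 and an FDR from edgeR. All of these adjusted values lie below 0.05.

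The quasi-likelihood test of edgeR 4.0.16 (R 4.3.3) was run once over the 9 libraries with no covariate beside the group. Scaling by TMM, filterByExpr and Benjamini-Hochberg adjustment over all 14582 tested genes were used, with a threshold of 0.05. The SE was derived from the F statistic as the size of the log2 fold change divided by its root. Intervals are 95%, from the t distribution for fold changes and exact conditional binomial for pooled reads, where they cover counting error only. The script was tested on simulated data. Coordinates and sequences are those of GRCh38.p14, and exon lengths come from GENCODE 29, while counts were made on hg19; genes were matched by identifier.

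The members and lists were chosen with earlier results of these data known, so no list is independent evidence. From each list, up to 4 called genes with the largest change and a mean of at least 1 CPM were eligible for naming. Also eligible were CTCF, DNMT1, TRIM28, the IGF2BP genes, HMGA2, IGF ligand, receptor and adaptor genes and tested 11p15 neighbours. SGCE, COPG2, DLK1 and MIR335, named as overlapping or adjacent to members, were added after values were seen. So were PDGFRA, SNRPN, PAPPA, IGFBP3, IGFBP4 and single values of eligible genes in other comparisons. KCNQ1OT1, ZIM2, MESTIT1, KLF14, HYMAI, AIRN, SNURF, MIR675 and UHRF1 had no matched row and were not analysed here. Alternatives tried were DESeq2 1.42.0, scaling by RLE, the upper quartile or library totals, no filter, a filter at 1 CPM in 3 libraries, fits of 6 libraries, a replicate block and leaving out each library.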

Additional observations from a re-analysis of the deposited data

Results flagged for a closer look

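For 5 of the 8 tested members other than H19 the PRMT5 and MEP50 knockdowns differed from each other by edgeR's test (adjusted p in the report). Over all tested genes 39.7% passed in that comparison, so this count is no result about imprinted genes. The log2 difference, PRMT5 knockdown minus MEP50 knockdown, was 0.94 for PHLDA2, which rose in the PRMT5 knockdown and fell in the MEP50 knockdown. It was 0.35 for IGF2R, which fell in the MEP50 knockdown and did not pass in the PRMT5 knockdown. GRB10 rose in both, with a difference of -0.31. PLAGL1, higher in both, had a difference of 0.26. For PEG10, which fell in both, the difference was 0.079. The calls for PLAGL1 and PEG10 did not hold when single libraries were left out.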

How the results depend on the processing

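Calls of IGF2, MEST, GRB10, PHLDA2, IGF2R and PEG10 against the control kept their direction and side of the threshold under all alternatives that gave a value, with IGF2 at 1.54 to 1.96 in the PRMT5 knockdown and 1.57 to 1.97 in the MEP50 knockdown when single libraries were left out. H19 kept its direction in all 17 alternatives, from -2.92 to -2.82 and from -5.76 to -5.40 when single libraries were left out. The exceptions were PLAGL1 (MEP50 knockdown, and between the knockdowns), PEG10 between the knockdowns and CDKN1C in the PRMT5 knockdown, whose values stand in the report. Between the knockdowns the sign of IGF2 turned without PRMT5 knockdown replicate 2 (0.19), MEP50 knockdown replicate 2 (0.14) or MEP50 knockdown replicate 3 (0.01), and that of CDKN1C without PRMT5 knockdown replicate 3 (-0.11) or MEP50 knockdown replicate 3 (-0.17), none of them past the threshold; over single libraries left out they ranged from -0.23 to 0.19 and from -0.17 to 0.42. Counts of other imprinted genes called in the PRMT5 knockdown ranged from 11 (without GFP control replicate 2) to 16 when single libraries were left out, against 17 with all, and the cause was not tested. The shares of all genes called in those fits are not given here, so this range is no result about imprinted genes. The filter at 1 CPM removed CDKN1C from every comparison, and the fit of 6 libraries removed it from the MEP50 knockdown against the control, so these gave no value. With the replicate number as a block, 7423, 7549 and 5759 genes were called in the PRMT5 knockdown, the MEP50 knockdown and between them, with 6, 7 and 5 members, and no member's call changed. Whether replicate numbers pair the samples was not settled. Same-numbered libraries of different groups had deviations correlated at -0.0361 to 0.0517, but 6 of 9 libraries correlated best with a library of their own number. Depth limits IGF2, CDKN1C and MEG3, which had 25, 21 and 1 reads in the 3 control libraries together.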
